A study of Homo sapiens with 4 samples.

Results

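The matrix metalloproteinases (MMPs), the ADAM and ADAMTS proteases and the tissue inhibitors of metalloproteinases (TIMPs) were followed in A375 cells that had become resistant to vemurafenib. A375 is a human melanoma line with an activating BRAF mutation, and vemurafenib inhibits the mutant BRAF kinase. The 45 genes were taken by name, and all 45 were found among the 62649 gene identifiers that were counted: 17 MMPs, 18 ADAMTS genes, 7 ADAMs and 3 TIMPs. The study compared 2 polyA RNA-seq libraries of resistant cells with 2 libraries of the parental line, called control. To select resistant cells, the vemurafenib dose had been raised each week by doubling, with 0.1 µM as the first dose and 6.4 µM as the last. Whether drug was in the medium at harvest, and whether the line is a pool or a clone, is not given in the labels. Cells of the series were also exposed to sorafenib and pioglitazone, but none of these 4 libraries is labelled with either drug.

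MMPs and their relatives are zinc proteases made as inactive precursors. Secreted MMPs cut collagens and other matrix proteins, and membrane-type MMPs do so at the cell surface, where MMP14 with the help of TIMP2 also activates pro-MMP2. ADAMs mostly release the outer parts of membrane proteins, ADAMTS proteases are secreted and cut proteoglycans, procollagens and microfibril proteins, and TIMPs block the active sites of these enzymes. In melanoma, MMP2 and MMP14 are known for their part in the breakdown of collagen and basement membrane.

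Counts assigned to genes ranged from 68022689 to 85197524 in the resistant libraries and from 72290468 to 87178097 in the controls. Each count of control replicate 1 was an even number (0 odd values), and halving them is among the alternatives. Of the counts from 1 to 10, 64.5% and 63.3% were even in resistant replicates 1 and 2, and 62.1% in control replicate 2. Control replicate 1 also had a count in fewer genes (32101) than resistant replicates 1 and 2 (37126 and 36923) and control replicate 2 (39454). The reason was not tested. Levels are given as CPM, a gene's share of the library's counts after TMM scaling, and a count of 3 corresponded to between 0.0346 and 0.0422 CPM. Across 10089 genes with at least 10 CPM on average, which are not independent replicates, the resistant libraries correlated at r = 0.978 and the controls at 0.962. Control replicate 2 was as close to the resistant libraries (0.959 and 0.966) as to control replicate 1, which stood further from them (0.916 and 0.923). The 2 libraries per group are called biological replicates without mention of separate cultures, so the error behind each p could be technical in part. In edgeR that error combines the gene's spread among the 4 libraries (2 degrees of freedom) with a spread estimated over all genes (5.69). As a check of the cell type, 12 pigment cell markers were looked at. SOX10 (969 and 864 CPM in resistant cells, 704 and 1149 in control cells) and MCAM (478 and 593 CPM in resistant cells, 385 and 540 in control cells) were abundant in each library. MITF had 12.3 and 23.4 CPM in resistant cells, against 42.2 and 22.8 CPM in control cells (edgeR adjusted p = 0.371). The pigmentation genes PMEL, MLANA, TYR, DCT and TYRP1 were low, at 2.34 CPM or less in each library.

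In resistant cells 5 of the 45 genes were lower and none was higher. The 5 were MMP14 and MMP19 among the MMPs, ADAMTS6 and ADAMTS12 among the ADAMTS genes, and ADAM19 among the ADAMs, with fitted decreases between 2.45-fold and 8.69-fold. Of the 45 genes 44 passed the filter on low counts, MMP3 being the exception, so 11.4% of those tested were lower. Calls are from edgeR's quasi-likelihood model and need an adjusted p under 0.05 (Benjamini-Hochberg, all 24961 genes). Among all genes tested 0.513% were lower and 0.577% were higher. An unadjusted edgeR p under 0.05 was found for 14 of the 44 (31.8%), 8 lower and 6 higher, against 13.5% of all genes. The resistant libraries lay above both controls in 10 genes and below both in 10, or 22.7% each, where 22.4% and 22.2% of all genes did so. The median log2 fold change of the 44 genes was 0.03, beside 0.0056 for all genes tested. With DESeq2, 8 were lower (18.2%) and 3 higher (6.82%), beside 2.59% and 2.4% of all genes. The added genes were MMP2, TIMP2 and ADAMTS2, lower, and MMP1, ADAMTS13 and ADAMTS16, higher. The calls depended on the libraries, and the 5 were lost without resistant replicate 2. Their log2 fold changes in that fit were -1.138 for MMP14, -3.275 for MMP19, -3.175 for ADAMTS6, -1.865 for ADAMTS12 and -1.738 for ADAM19. The number of calls over all genes also changed with the library left out. Less RNA per cell and fewer cells that make the RNA cannot be told apart in such bulk libraries.

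**Figure D1:**
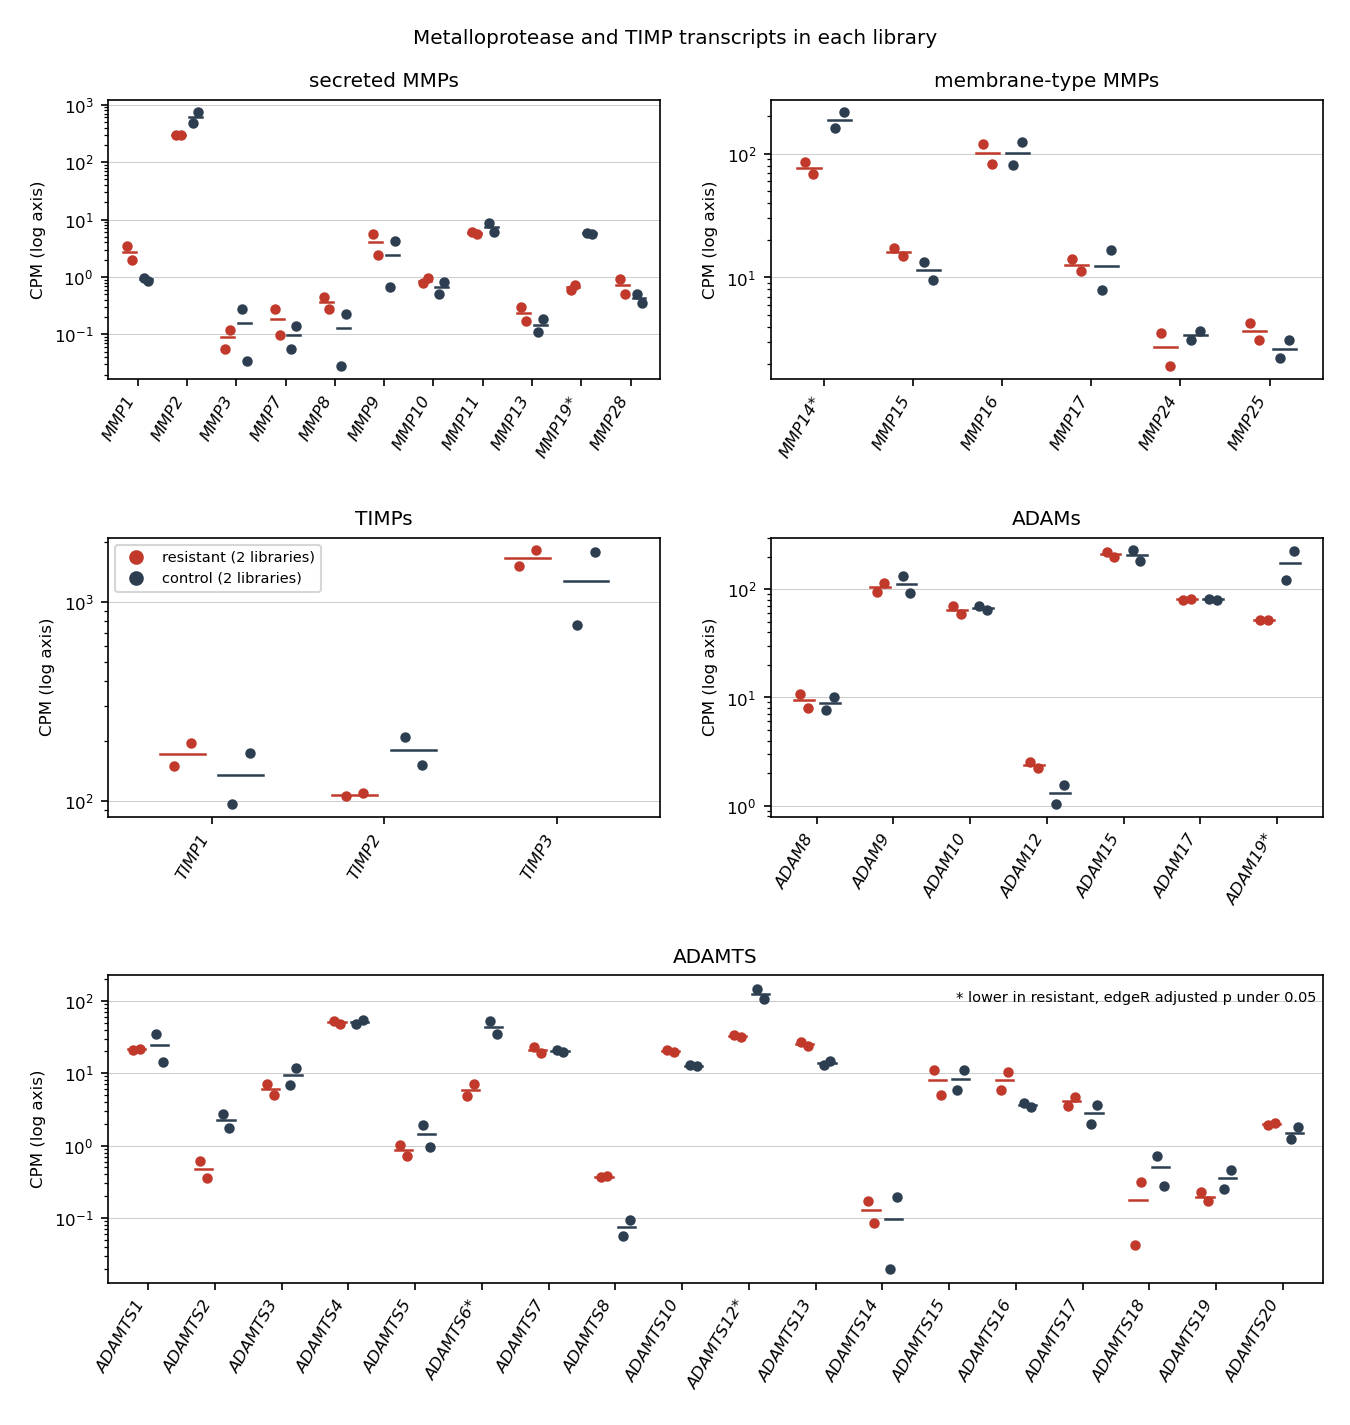
Level of each of the 45 genes in CPM (log axis) in each library, resistant in red on the left and control in dark blue on the right of each gene; points are libraries, lines are means, and asterisks mark genes called lower. The count of 0 of ADAMTS14 in control replicate 1 is drawn at 0.02 CPM. The 2 resistant libraries of MMP14, MMP19, ADAMTS6, ADAMTS12 and ADAM19 sit below both controls, while the points of ADAM10, ADAM15 and ADAM17 overlap.

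**Figure D2:**
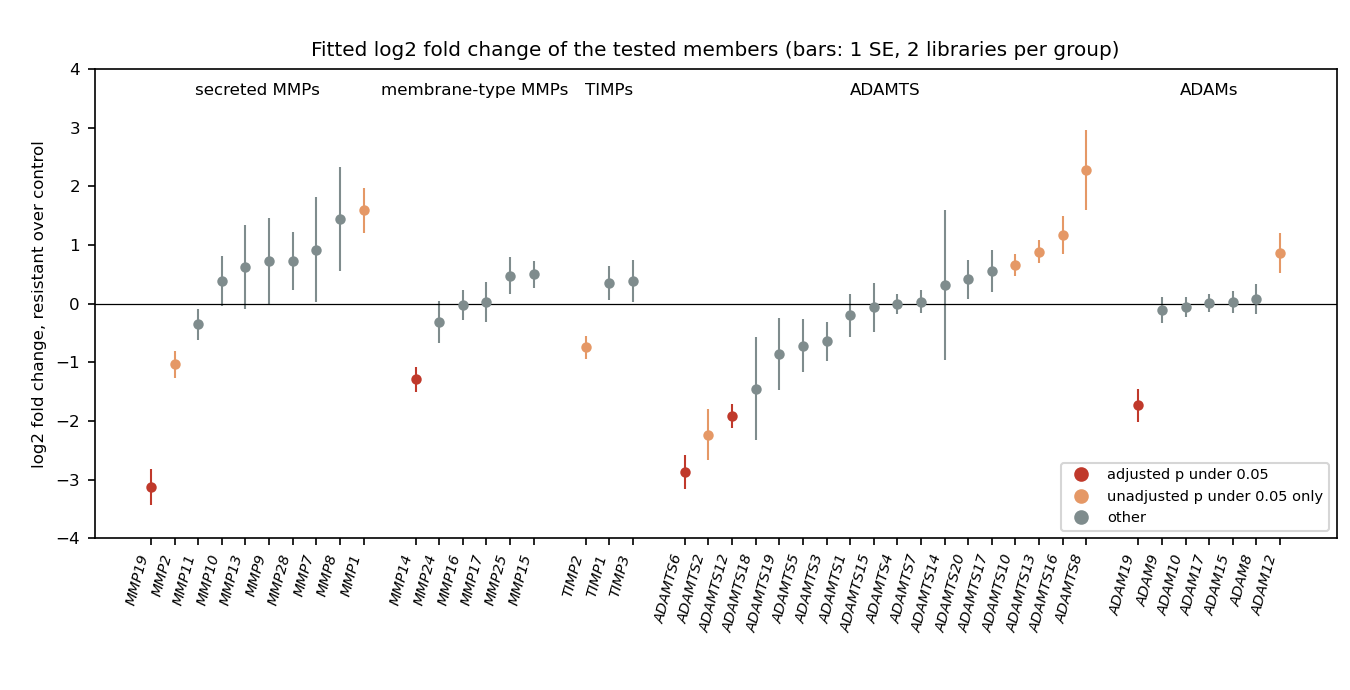
Fitted log2 fold change, resistant over control, of the 44 tested genes with 1 SE, ordered within each class. The 5 red points with an adjusted p under 0.05 lie between -3.12 and -1.29, and the 6 orange points above 0 are ADAMTS8, MMP1, ADAMTS16, ADAMTS13, ADAM12 and ADAMTS10.

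The promoter sequences of genes that were lower are shown to let their proximal letters be compared. RefSeq windows (GRCh38.p14) were at hand for 27 of the 45 genes, 4 of them lower: MMP14 (chr14:22836335-22836594, plus strand), ADAMTS6 (chr5:65481911-65482170, minus strand), ADAMTS12 (chr5:33891981-33892240, minus strand) and ADAM19 (chr5:157575766-157576025, minus strand). Each stretch runs 5′ to 3′ over the 250 bases before the annotated start and the first 10 bases after it. Capitals mark matches on either strand, and no marked match overlaps another. The letters searched were TGACTCA for the AP-1 site. ETS factors were represented by CCGGAAG. An E-box was taken as CACGTG. For the cyclic AMP response element the letters were TGACGTCA. A GC box was read as GGGCGG. The TATA box was searched as TATAAA.
MMP14: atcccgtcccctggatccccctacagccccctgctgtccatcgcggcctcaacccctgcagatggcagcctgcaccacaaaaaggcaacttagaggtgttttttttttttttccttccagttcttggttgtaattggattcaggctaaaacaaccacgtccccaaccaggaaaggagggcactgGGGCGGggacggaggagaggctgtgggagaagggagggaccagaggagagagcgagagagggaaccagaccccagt
ADAMTS6: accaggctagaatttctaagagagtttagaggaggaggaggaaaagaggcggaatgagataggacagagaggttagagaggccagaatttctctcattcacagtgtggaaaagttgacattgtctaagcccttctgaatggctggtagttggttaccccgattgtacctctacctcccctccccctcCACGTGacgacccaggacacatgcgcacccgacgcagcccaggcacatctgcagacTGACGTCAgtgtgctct
ADAMTS12: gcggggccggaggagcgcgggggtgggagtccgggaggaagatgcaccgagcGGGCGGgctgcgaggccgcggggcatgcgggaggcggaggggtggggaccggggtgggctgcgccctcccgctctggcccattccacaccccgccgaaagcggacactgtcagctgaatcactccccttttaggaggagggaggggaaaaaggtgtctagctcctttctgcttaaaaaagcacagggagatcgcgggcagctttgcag
ADAM19: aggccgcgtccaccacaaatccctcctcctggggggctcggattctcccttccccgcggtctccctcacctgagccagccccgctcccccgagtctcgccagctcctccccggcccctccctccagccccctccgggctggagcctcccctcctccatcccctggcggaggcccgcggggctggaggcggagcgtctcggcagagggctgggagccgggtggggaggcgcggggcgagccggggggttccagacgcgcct
No marked motif is present in all 4 stretches. MMP14 and ADAMTS12 hold a GC box, and ADAMTS6 holds the E-box and the cyclic AMP response element, which reaches the start site, while ADAM19 holds none of these letters. Over whole windows of 300 bases, the GC box was present in 22 of the 27 genes (81.5%), against 45% of 35116 promoters. A gene counted if any of its windows matched (ADAMTS10 had 2), while the background counts single windows. G and C made up 58.7% of all promoters at the median, and most windows of these genes lay above that (range 35.7% for MMP7 to 80.3% for ADAMTS2). Whether the GC box exceeds what this base composition gives was not tested. The AP-1 site was present in 1 of the 27 genes (MMP7), against 4.95% of all promoters, and the ETS site in 1 (ADAM17), against 10.3%. For the E-box the numbers were 3 genes (ADAM10, ADAMTS6 and ADAMTS17) against 7.26%, for the cyclic AMP response element 1 gene (ADAMTS6) against 1.85%, and for the TATA box 4 genes (MMP7, MMP8, MMP10 and ADAMTS10) against 11.5%. These matches describe letters in a window, not binding sites.

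Among the secreted MMPs, MMP19 changed most. MMP19, a soluble protease that cuts basement membrane proteins (ENSG00000123342.16, chromosome 12, 55835433 to 55842966, GRCh38), had 42 and 60 counts in the resistant libraries, against 416 and 491 in the controls, which is 0.591 and 0.726 CPM against 5.81 and 5.67 CPM. Its groups did not overlap, and the log2 fold change was -3.12 ± 0.31 (SE, edgeR adjusted p = 0.012). Exons of TMEM198B on the other strand cover 17.6% of the exonic bases of MMP19, and reads there were left out by the counting. MMP2, the gelatinase that digests denatured and basement membrane collagen, was by far the most abundant of the secreted MMPs. It had 291 and 300 CPM in resistant cells, against 481 and 733 CPM in control cells. Both resistant libraries were below both controls, but the log2 fold change of -1.04 ± 0.23 missed the edgeR threshold (adjusted p = 0.0871), while DESeq2 called it (adjusted p = 0.00173). MMP2 passed edgeR without control replicate 1 (adjusted p = 1.96e-04) and without control replicate 2 (0.045).

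MMP1, the interstitial collagenase, went the other way at a low level. It had 3.53 and 1.95 CPM in resistant cells, against 0.95 and 0.866 CPM in control cells, with no overlap of the groups. Its log2 fold change of 1.59 ± 0.39 missed the edgeR threshold (adjusted p = 0.113) and was called by DESeq2 (0.0101). Exons of WTAPP1 on the other strand cover 8.14% of its exonic bases. MMP1 lies on chromosome 11 with MMP7, MMP8, MMP10, MMP3 and MMP13 in a stretch of 435 kb (102520508 to 102955732). These 5 neighbours stayed under 1 CPM in each library, and MMP3 had 4 and 10 counts in resistant cells, against 20 and 3 in control cells. A difference in MMP3 was not detectable at this depth. MMP8, the neutrophil collagenase, had 32 and 23 counts in resistant cells, against 2 and 20 in control cells. Its resistant libraries lay above both controls, as in 22.4% of all genes, with an edgeR adjusted p of 0.555. The log2 fold change of MMP8 was 1.44, and 0.65 without control replicate 1. Of the other secreted MMPs, the gelatinase gene MMP9 had 5.64 and 2.43 CPM in resistant cells, against 0.671 and 4.19 CPM in control cells, so its groups overlapped. MMP11, or stromelysin 3, and MMP28, or epilysin, had edgeR adjusted p-values of 0.646 and 0.609.

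Of the membrane-type MMPs, MMP14 (ENSG00000157227.14, chromosome 14, 22836560 to 22849041, the gene of MT1-MMP) was the only one called. It had 85.3 and 68 CPM in resistant cells, against 161 and 215 CPM in control cells. The groups lay apart, and the fitted log2 difference was -1.29 ± 0.21 (edgeR adjusted p = 0.0415). MMP16, the gene of MT3-MMP, had a lower level per length and did not separate the groups. It had 118 and 82.2 CPM in resistant cells, against 81 and 123 CPM in control cells, a log2 fold change of -0.024 with a 95% interval from -0.62 to 0.57 (0.0080 with scaling by library totals). The other 4 membrane-type genes, MMP15, MMP17, MMP24 and MMP25, ranged from 1.92 to 17.3 CPM, with log2 fold changes between -0.32 and 0.50 and an edgeR adjusted p of 0.423 or more. Antisense exons cover 30.6% of the exonic bases of MMP25 and 22.1% of those of MMP24.

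The inhibitors did not move as a class. TIMP3, which stays bound to the matrix and blocks ADAMs and ADAMTS proteases as well as MMPs, had the highest level per length of all 45 genes. It had 1507 and 1815 CPM in resistant cells, against 765 and 1772 CPM in control cells. The highest control lay between the resistant libraries, the log2 fold change was 0.39 ± 0.36, and edgeR did not call it (adjusted p = 0.719). TIMP1, a soluble inhibitor of most secreted MMPs, behaved in the same way. It had 149 and 195 CPM in resistant cells, against 96.2 and 173 CPM in control cells (log2 fold change 0.35 ± 0.29, edgeR adjusted p = 0.677). Both were low in control replicate 1 alone: without that library the log2 fold change was -0.09 for TIMP3 and -0.0075 for TIMP1, and without control replicate 2 it was 1.12 and 0.84 (adjusted p = 0.00434 and 0.037). TIMP2, which binds MMP14 when pro-MMP2 is activated, had 105 and 109 CPM in resistant cells, against 208 and 152 CPM in control cells. Its groups did not overlap, with a log2 fold change of -0.75 ± 0.20 that missed the edgeR threshold (adjusted p = 0.138) and passed DESeq2 (0.0369). CEP295NL and an antisense gene share 10% of its exonic bases.

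MMP14, MMP2 and TIMP2, the 3 genes of the pro-MMP2 activation complex, each had both resistant libraries below both controls, as 22.2% of all genes did, and 1 of the 3 passed edgeR. This trio was put together with the values known. Per length, as RPKM, which is CPM divided by the length of the merged exons in kilobases, MMP2 had 61.9 and 63.7 RPKM in resistant cells, against 102 and 156 RPKM in control cells. MMP14 had 18.4 and 14.7 RPKM in resistant cells, against 34.8 and 46.4 RPKM in control cells. TIMP2 had 18.7 and 19.3 RPKM in resistant cells, against 36.9 and 26.9 RPKM in control cells.

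Of the 18 ADAMTS genes 2 were lower and none was higher, beside 0.513% and 0.577% of all genes. At an unadjusted edgeR p under 0.05, 3 were lower and 4 higher, beside 13.5% of all genes in either direction. ADAMTS6 (ENSG00000049192.15, chromosome 5, 65148738 to 65481920), a secreted protease linked to fibrillin microfibrils, had 4.77 and 7.01 CPM in resistant cells, against 51.9 and 34.5 CPM in control cells. The groups lay far apart, at a fitted log2 difference of -2.87 ± 0.29 (edgeR adjusted p = 0.012). ADAMTS10, its closest relative and also a microfibril protease, had 20.6 and 19.4 CPM in resistant cells, against 13 and 12.5 CPM in control cells. That was a log2 fold change of 0.65 ± 0.19, which passed neither edgeR (adjusted p = 0.169) nor DESeq2 (0.0781). ADAMTS12 (ENSG00000151388.11, chromosome 5, 33523535 to 33892019), which like ADAMTS7 cuts cartilage oligomeric matrix protein, had 34.1 and 32 CPM in resistant cells, against 144 and 105.5 CPM in control cells. Its resistant libraries were nearly level and its log2 fold change was -1.91 ± 0.20 (edgeR adjusted p = 0.014). ADAMTS7 had 22.7 and 18.7 CPM in resistant cells, against 20.6 and 19.8 CPM in control cells (log2 fold change 0.034, 95% interval -0.41 to 0.48). The annotation also holds pseudogenes of ADAMTS7, and reads shared with them were not measured.

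Among the procollagen N-proteinases, which trim fibrillar procollagens, ADAMTS2 had 0.605 and 0.351 CPM in resistant cells, against 2.74 and 1.77 CPM in control cells. The groups did not overlap, and the log2 fold change of -2.24 ± 0.43 missed edgeR (adjusted p = 0.0634) but passed DESeq2 (6.07e-04). ADAMTS3 and ADAMTS14 ranged from 0 to 11.9 CPM, with overlapping groups. ADAMTS14 had 0 counts in control replicate 1, where 3 counts correspond to 0.0419 CPM.

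ADAMTS13, the protease that trims von Willebrand factor, had 26.9 and 24.1 CPM in resistant cells, against 12.8 and 14.7 CPM in control cells. This was a log2 fold change of 0.89 ± 0.19, which missed edgeR (adjusted p = 0.0837) and passed DESeq2 (0.0051). ADAMTS16 had 5.77 and 10.4 CPM in resistant cells, against 3.83 and 3.37 CPM in control cells (log2 1.17 ± 0.33, edgeR adjusted p = 0.157, DESeq2 0.0137). Both genes were higher in each resistant library than in either control. ADAMTS8, of the aggrecan-cleaving group, had 26 and 31 counts in resistant cells, against 4 and 8 in control cells, or 0.366 and 0.375 CPM against 0.0559 and 0.0924 CPM (log2 2.28 ± 0.68, edgeR adjusted p = 0.184). The other proteoglycan-cleaving members, ADAMTS1, ADAMTS4, ADAMTS5, ADAMTS15 and ADAMTS20, had log2 fold changes between -0.72 and 0.41 and an edgeR adjusted p of 0.564 or more. ADAMTS4, a main aggrecanase, was the steadiest of these at 52.5 and 47.8 CPM in resistant cells, against 47.4 and 53.5 CPM in control cells. ADAMTS17, ADAMTS18 and ADAMTS19 ranged from 0.0422 to 4.68 CPM, with an edgeR adjusted p of 0.552 or more.

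ADAM19, which encodes a sheddase of neuregulins (ENSG00000135074.16, chromosome 5, 157395534 to 157575775), was the 1 of 7 ADAMs that fell. It had 52.1 and 52.4 CPM in resistant cells, against 122 and 225 CPM in control cells. The resistant libraries were level and the controls differed from each other, at a fitted log2 difference of -1.73 ± 0.28 (edgeR adjusted p = 0.0415, and 0.0544 without resistant replicate 1). The levels of the general sheddases differed little between the groups. ADAM17, which releases tumour necrosis factor and ligands of the EGF receptor, had 80.1 and 81.6 CPM in resistant cells, against 81.1 and 80.1 CPM in control cells. Its log2 fold change was 0.0047 with a 95% interval from -0.36 to 0.37. ADAM10, a sheddase of Notch receptors and cadherins, had 70.2 and 59.2 CPM in resistant cells, against 70.4 and 64.7 CPM in control cells. Its log2 fold change was -0.063 with a 95% interval from -0.46 to 0.33. ADAM15, an ADAM with an integrin-binding disintegrin domain, had 221 and 201 CPM in resistant cells, against 229 and 184 CPM in control cells (95% interval of the log2 fold change -0.40 to 0.46). For these 3 genes the intervals leave out a 2-fold difference in either direction, but not the smaller differences within their limits. ADAM12, which cuts insulin-like growth factor binding proteins, had 2.52 and 2.21 CPM in resistant cells, against 1.03 and 1.56 CPM in control cells (log2 0.86 ± 0.34, edgeR adjusted p = 0.328). ADAM8 and ADAM9 had log2 fold changes of 0.083 and -0.11, and their groups overlapped.

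**Figure D3:**
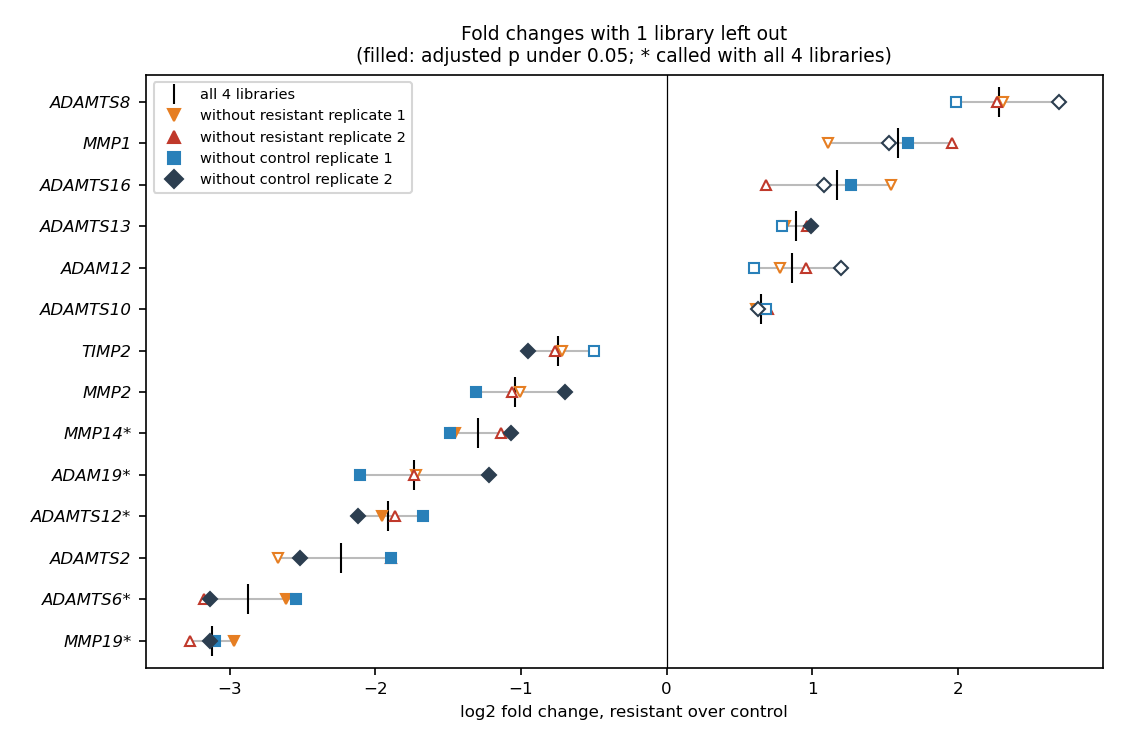
Log2 fold change, resistant over control, of the 14 genes with an unadjusted edgeR p under 0.05, with all 4 libraries (black bars) and with each library left out (symbols, filled where the adjusted p was under 0.05). Each of the 14 genes keeps its side of 0 in the 4 fits. In all 14 genes both resistant libraries lay on the same side of both controls. The kept side was therefore largely set by the choice of genes and is no test of direction.

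Compared per length, the 8 highest genes made up 90.9% of the summed RPKM of the 45, in the order TIMP3 (mean over the 4 libraries 319 RPKM), TIMP1 (106), MMP2 (95.9), ADAM15 (31.7), MMP14 (28.6), TIMP2 (25.5), ADAM19 (14.7) and MMP16 (8.35). TIMP1 and MMP2 overlapped in their libraries, as did ADAM15, MMP14 and TIMP2. At the other end, 10 genes stayed under 1 CPM in each library. Summed RPKM of the MMPs was 106 and 96.5 in resistant cells, against 154 and 226 in control cells, and MMP2 accounts for most of it. The ADAMTS genes summed to 28.1 and 26.3 RPKM in resistant cells, against 41.2 and 34.7 in control cells. The ADAMs summed to 57.7 and 54.5 RPKM in resistant cells, against 69.4 and 73.7 in control cells. The TIMPs summed to 449 and 549 RPKM in resistant cells, against 270 and 532 in control cells. The sums of the 3 protease classes were lower in each resistant library than in each control, but those of the ADAMTS genes and ADAMs were so through the called genes. Without ADAMTS6 and ADAMTS12 the ADAMTS sum was 24 and 22.1 RPKM in resistant cells, against 20.2 and 19.7 in control cells, which is the other order. Without ADAM19 the ADAM sum was 50.9 and 47.6 RPKM in resistant cells, against 53.6 and 44.5 in control cells, with overlap. Without MMP14 and MMP19 the MMP sum was 87 and 81.7 RPKM in resistant cells, against 118 and 178 in control cells. MMP2, which edgeR did not call, held 61.9 and 63.7 RPKM of that in resistant cells, against 102 and 156 in control cells. The lower MMP sum is therefore mostly that of MMP2 and MMP14, not of the class. The sums of the inhibitors overlapped. These sums are descriptions without a test.

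**Figure D4:**
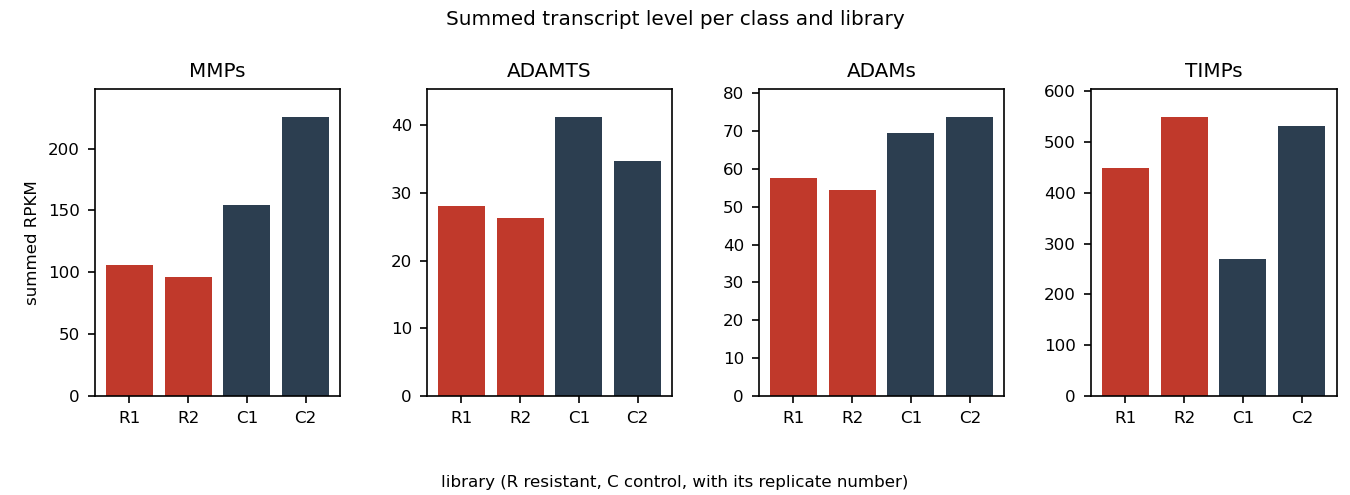
Summed RPKM of the 17 MMPs, 18 ADAMTS genes, 7 ADAMs and 3 TIMPs in each library (bars start at 0; scales differ between panels). Bars of the 3 protease classes are lower in the resistant libraries R1 and R2 than in the controls C1 and C2. For the ADAMTS genes and ADAMs this holds only with ADAMTS6, ADAMTS12 and ADAM19 included, and MMP2 makes up most of each MMP bar. The TIMP bar of C2 (532) stands between those of R1 (449) and R2 (549).

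Of the 5 lower genes 3 lie on chromosome 5, which holds 6 of the 45 genes, so their neighbours were examined. Counting protein-coding neighbours up to 5 Mb away whose level reached 3 CPM, there were 33 around ADAMTS6, 26 around ADAMTS12 and 28 around ADAM19. Their median log2 fold changes were 0.025, 0.015 and -0.02. None of these neighbours was called, beside 0.513% lower and 0.577% higher among all genes tested. None was as low as the protease gene, but that gene was picked for being lower, so this order was largely set by the choice. Around MMP14, 65 neighbours had a median of -0.092, none was called and 1 was lower than MMP14. Around MMP19, 128 neighbours had a median of -0.05, 2 were called lower and none was as low as MMP19. ADAMTS16, also on chromosome 5 and named here after its value was seen, had a log2 fold change above that of each of its 27 neighbours (median 0.02).

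**Figure D5:**
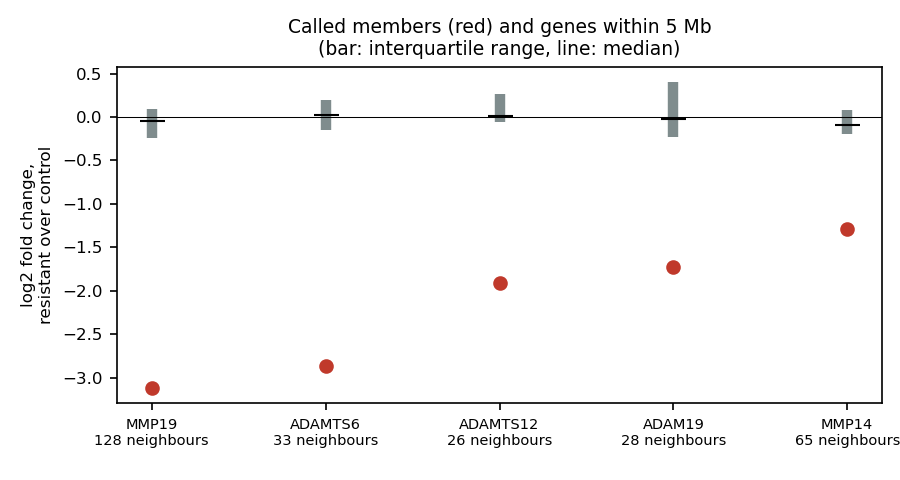
Log2 fold change, resistant over control, of the 5 genes called lower (red points) and of the protein-coding genes within 5 Mb of each (grey bars, interquartile range; black lines, median). The medians lie between -0.092 and 0.025, and the red points lie below each bar.

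Genes that activate, inhibit or serve as substrates of these proteases were also counted, in lists drawn up with earlier results of these data known. Of 23 activators, inhibitors and partners (furin-type convertases, RECK, tetraspanins, ADAMTS-like proteins), none passed edgeR, while 10 had an unadjusted p under 0.05, beside 13.5% of all genes. DESeq2 called 5 higher and 3 lower, beside 2.4% and 2.59% of all genes (median log2 fold change -0.023). The nearest to the threshold were TSPAN33, a tetraspanin that escorts ADAM10, with 16.1 and 15 CPM in resistant cells, against 5.76 and 7.26 CPM in control cells (edgeR adjusted p = 0.052). TFPI2, a protease inhibitor of the matrix, followed with 71.5 and 98 CPM in resistant cells, against 15.1 and 32.9 CPM in control cells (edgeR adjusted p = 0.0637). Of 14 tested genes of plasminogen activation, 1 was lower and none higher, beside 0.513% and 0.577% of all genes. The lower gene was TMPRSS15, which encodes enteropeptidase, an activator of trypsinogen rather than of plasminogen. It had 0.872 and 0.798 CPM in resistant cells, against 77.9 and 59 CPM in control cells (log2 fold change -6.36 ± 0.25, edgeR adjusted p = 3.06e-04), and the list median was -0.089.

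Of 33 tested matrix substrates 1 was higher and none lower, beside 0.577% and 0.513% of all genes (list median 0.14). The 1 was ACAN, the gene of aggrecan, the substrate for which aggrecanases are named. It had 41.8 and 19.2 CPM in resistant cells, against 1.45 and 4.42 CPM in control cells (log2 fold change 3.37 ± 0.56, edgeR adjusted p = 0.0432, and 0.0889 without resistant replicate 2). Its log2 fold change was 4.39 without control replicate 2 and 2.71 without resistant replicate 1. Of 35 tested substrates of ADAM shedding 2 were higher and none lower, beside 0.577% and 0.513% of all genes (list median -0.18). They were named after their values were seen: CX3CL1, the chemokine fractalkine, with 3.5 and 4.15 CPM in resistant cells, against 0.447 and 0.647 CPM in control cells (edgeR adjusted p = 0.0223), and the Notch ligand DLL1, with 2.48 and 2.53 CPM in resistant cells, against 0.671 and 0.693 CPM in control cells (edgeR adjusted p = 0.0488). Without resistant replicate 2 their adjusted p was 0.122 and 0.217, and without resistant replicate 1 that of DLL1 was 0.114. With a filter of 1 CPM in 2 libraries ACAN (adjusted p = 0.0552) and DLL1 (0.052) no longer passed, and DLL1 did not pass with library totals (0.0507). Of 20 transcription regulators of MMP genes, such as AP-1, ETS and RUNX factors, none passed edgeR, beside 0.577% higher and 0.513% lower of all genes. An unadjusted p under 0.05 was found for 1, beside 13.5% of all genes. DESeq2 called none, beside 2.4% higher and 2.59% lower of all genes (list median -0.072). With so few genes these counts do not show that the regulators were unchanged. The lowest unadjusted p-values were those of RUNX1 (0.0208; log2 fold change -0.51) and TWIST1 (0.0532; -0.49).

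Fibroblasts and leukocytes are rich sources of MMPs in tissue, and their markers were few in these cultures. The 8 fibroblast markers summed to between 12 and 13.4 CPM in resistant cells and between 12.5 and 16.3 CPM in control cells, with 2 under 1 CPM in each library and none at 0 throughout. COL1A1 alone made up between 4.61 and 7.8 CPM of these sums. Of the 7 tested, 5 had a negative log2 fold change (median -0.83). An unadjusted edgeR p under 0.05 was found for 3, each lower (LUM, PDGFRA and FAP), beside 13.5% of all genes in either direction. LUM had 0.366 and 0.145 CPM in resistant cells, against 2.18 and 1.43 CPM in control cells (edgeR adjusted p = 0.0569). The 8 leukocyte markers summed to between 4.41 and 6.36 CPM in resistant cells and between 4.14 and 5.75 CPM in control cells, with 7 under 1 CPM in each library. SOX9, listed with the pigment cell markers, and KRT14, with the keratinocyte markers, were lower (SOX9 2.69 and 4.16 CPM in resistant cells, against 28.4 and 20 CPM in control cells, edgeR adjusted p = 0.014; KRT14 0.309 and 0.314 CPM in resistant cells, against 1.62 and 2.08 CPM in control cells, edgeR adjusted p = 0.0355). Without resistant replicate 2 neither passed (0.0608 and 0.186), nor did KRT14 without resistant replicate 1 (0.0789). Of the 12 pigment cell markers 5 had a positive log2 fold change and 7 a negative one. Of the 4 tested keratinocyte markers 3 were positive and 1 was negative. CSPG4 had 1791 and 1636 CPM in resistant cells, against 470 and 1121 CPM in control cells (edgeR adjusted p = 0.226). KRT10, most of the keratinocyte sum, had 57.7 and 89.1 CPM in resistant cells, against 47.5 and 60.2 CPM in control cells (0.487). The part of these marker genes in the protease results was not tested.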

How the data were processed

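PolyA-selected, strand-specific, paired-end libraries were made, per the labels' protocols. The authors deposited raw counts per gene, 1 file per library. Per the file headers, featureCounts 2.0.0 counted reads against GENCODE release 42 with no strand, pairing or multi-mapping option set, so reads of overlapping antisense genes cannot be told apart by strand. STAR, featureCounts, DESeq2 and GRCh38 are named in the submitters' processing notes. A deposited table of log2 fold changes names no comparison and entered no test.

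Symbols were attached by identifier without its version. Counts were filtered with edgeR's filterByExpr (24961 genes kept) and scaled with TMM. A quasi-likelihood model of the 2 groups was then fitted in edgeR 4.0.16 (with limma 3.58.1 under R 4.3.3). Its F tests are two-sided, adjusted over all genes by Benjamini-Hochberg, and called under 0.05. The biological coefficient of variation was 25.5%. Fold changes are fitted, resistant over control, and SE is their size divided by the square root of F. RPKM divides CPM by the deposited exonic length. DESeq2 1.42.0, other scalings and filters, each library left out, a replicate block and control replicate 1 halved were alternatives.

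The genes and lists were chosen with earlier results of these data known; promoter motifs and neighbours were added after the fold changes had been seen. Values of each library are given for genes that were called, had an unadjusted p under 0.05, were among the 8 highest by RPKM, or were MMP2, MMP14, ADAM10, ADAM17 or a TIMP, and the others mostly by range. Intervals and count floors cover counting and library spread only.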

Additional observations from a re-analysis of the deposited data

How the results depend on the processing

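The 5 calls were kept with RLE factors, library totals, a filter of 1 CPM in 2 libraries, and control replicate 1 halved. DESeq2 and the fit without a filter each called 11 of the genes. The replicate block called 3, losing MMP14 (adjusted p = 0.0945) and ADAM19 (0.0642); same-numbered libraries did not deviate together (r = 0.0022 over 10089 genes), so the numbers do not pair them. With 1 library left out between 0 and 12 genes passed, with resistant replicate 2 out giving 0 and control replicate 2 out giving 12, where the lone library is assumed to vary like the other group. Over all genes 272 were called, 1222 with DESeq2, 1866 without a filter, 64 under the replicate block, and 16 to 2166 with 1 library left out. In the 5 other pathway lists 4 were called, 17 with DESeq2, 26 without a filter, 2 with the filter of 1 CPM, 2 under the block (where ACAN, CX3CL1 and DLL1 no longer passed, with adjusted p of 0.101, 0.0559 and 0.109), and 1 to 27 with 1 library left out. The causes were not tested.

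Signs of log2 fold changes near 0 turned: ADAMTS4 had 0.0061 with DESeq2, 0.017 with library totals and 0.011 without a filter, and MMP16 0.0080 with library totals. Over the 4 fits that omit a library, MMP7 ranged on the log2 scale from -0.0094 to 1.72, and other ranges were from -0.41 to 0.67 for MMP17, from -0.10 to 0.17 for ADAMTS7, from -0.64 to 6.26 for ADAMTS14 (0 counts in control replicate 1), from -0.13 to 0.29 for ADAM8, from -0.34 to 0.18 for ADAM9, from -0.12 to 0.20 for ADAM15, from -0.30 to 0.31 for MMP16, from -0.82 to 0.062 for MMP24, from -0.092 to 0.085 for ADAMTS4, from -0.72 to 0.47 for ADAMTS15, from -0.18 to 0.057 for ADAM10, from -0.0068 to 0.026 for ADAM17, from -0.059 to 2.59 for MMP9, from -0.0075 to 0.84 for TIMP1, from -0.091 to 1.12 for TIMP3 and from -0.69 to 0.58 for ADAMTS1. None of these genes was called with all 4 libraries.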

Other observations

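The authors' deposited table of log2 fold changes, which names no comparison, lists 1533 genes and 12 of the 45 described here. All 5 genes called lower are among the 12. In the authors' deposited table the values are -1.29 for MMP14, -2.45 for MMP19, -2.98 for ADAMTS6, -1.9 for ADAMTS12 and -1.73 for ADAM19, and -1.04 for MMP2, -0.72 for TIMP2 and -3.18 for ADAMTS2. The 4 positive values of the authors' deposited table are 1.54 for MMP1, 1.12 for ADAMTS16, 0.92 for ADAMTS13 and 0.69 for ADAMTS10. The signs are those of the fits above in 12 of 12 genes. MMP19 and ADAMTS2 differ most from the edgeR values of -3.12 and -2.24. Base 2 was inferred from the values, whose slope against the fits was 0.865 over 1395 genes, and the libraries behind the table are not named, so it is no independent support.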
